A study of Mus musculus with 16 samples.

Results

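The clustered core histone genes of the mouse encode the H2A, H2B, H3 and H4 proteins that are made in bulk while DNA is copied. Members were taken by symbol, as genes named H2ac, H2bc, H3c or H4c with a number or carrying an older Hist1 to Hist4 name of the same classes, with at least 10 reads summed over the libraries. Of 27179 genes in the count table, 63 bore such a name and 53 met the read minimum. They comprised 15 H2A, 14 H2B, 11 H3 and 13 H4 genes, of which 41 lie on chromosome 13, 9 on chromosome 3, 2 on chromosome 11 and 1 on chromosome 6. Of the 53, 4 matched only through an older name: H2aw (Hist3h2a), H2bu2 (Hist3h2ba), H4f16 (Hist4h4) and H4bc24, which was Hist1h2br and is counted with H2B.

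The cells were iBMDM, an immortalised macrophage line derived from mouse bone marrow, and every library came from the line labelled MyD88-AGF with the genotype MyD88-AGF WT. MyD88 is the adaptor that carries signals from Toll-like receptors; the labels do not explain AGF or say whether the line is 1 clone. RNA sequencing was done on 4 groups of 4 libraries. Untreated cells and LPS-treated cells (10 ng/mL for 6 h) were each run through the cytometer without a gate, giving the untreated group and the LPS pool. Cells given the same LPS dose and time were also sorted by side scatter into a low gate, the bystander group, and a high gate, the responder group. The titles call the untreated group and the LPS pool unsorted. Comparing a gate with untreated cells thus also sets sorted beside unsorted cells, and the part of sorting was not tested. Nothing in the labels says that libraries came from separate cultures, so p-values measure the spread between these libraries, which may be technical.

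Most clustered core histone genes have no introns, and most of their mRNAs end in a short stem-loop in place of a poly(A) tail. The stem-loop is bound by SLBP, and the 3′ end is cut by a complex that holds the U7 snRNA with LSM10 and LSM11; NPAT switches the genes on at the histone locus body when cells enter S phase. Their transcripts are made in S phase and decay when DNA synthesis stops. Some copies also make longer, polyadenylated transcripts, which are known from differentiated cells.

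The stem-loop is shown because it bears on which histone RNAs a library can hold. A stem-loop of this kind (a paired stem of 6 bases that opens with GG and closes with CC, and a loop of 4 bases of which the first 3 are T) was found in a transcript of 38 of the 53 members. Some members without a match have short annotated transcripts, such as H4c12 at 312 bases and H2bc15 at 381, which may end before a stem-loop. Among all 58797 protein-coding transcripts of GENCODE M21 (GRCm38), 66 held the stem-loop on the sense strand, or 0.112%. Its form in 5 members that the results turn on is printed with the loop in capitals, from the first base of the stem to the last.
H2ac24: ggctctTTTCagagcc
H2ac23: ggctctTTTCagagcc
H2ac11: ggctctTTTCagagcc
H2aw: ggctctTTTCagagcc
H4c9: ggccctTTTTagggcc
H2ac24, H2ac23, H2ac11 and H2aw had the same 16 letters, and H4c9 differed in stem and loop. The annotated transcripts went on for very different lengths past the stem-loop: 3 bases in H2ac24, 31 in H2ac23 and 23 in H2ac11, against 330 in H4c9, 1167 in H3c14 and 1643 in H2aw. The annotated transcripts of H2bc4 (1156 bases) and H2bc21 (2620 bases) held no stem-loop of this form.

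**Figure D1:**
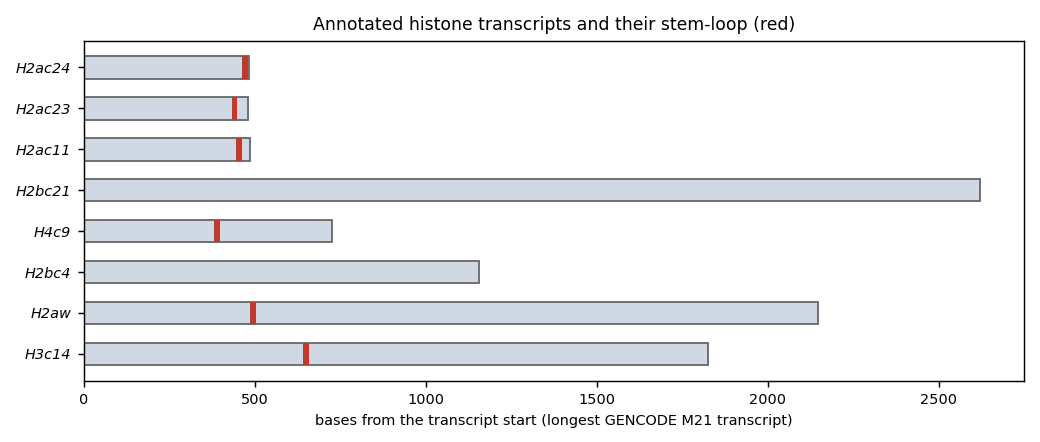
Longest GENCODE M21 transcript of 8 abundant members, as bars in bases from the transcript start, with the stem-loop in red. In H2ac24, H2ac23 and H2ac11 the stem-loop is close to the end of the bar, in H4c9, H2aw and H3c14 it lies well before it, and H2bc21 and H2bc4 have none.

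Promoters are shown for 4 members that differed in how they moved between groups. The sequences are the 250 bases before the RefSeq start (GRCm38.p6), read along the gene's strand. Capitals mark the CCAAT box, the TATA box core TATAA and the octamer ATTTGCAT, each on either strand, so that a match on the other strand reads as the reverse complement. The longer TATA box form TATAAA contains the core and overlaps it.
H2ac24 (chr13:21833476-21833725, minus strand): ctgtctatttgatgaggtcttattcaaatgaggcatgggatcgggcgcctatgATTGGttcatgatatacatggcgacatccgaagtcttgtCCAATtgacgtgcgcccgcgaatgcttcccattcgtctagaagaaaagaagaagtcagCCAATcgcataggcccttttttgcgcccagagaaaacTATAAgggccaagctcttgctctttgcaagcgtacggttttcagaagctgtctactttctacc
H2ac11 (chr13:22042950-22043199, minus strand): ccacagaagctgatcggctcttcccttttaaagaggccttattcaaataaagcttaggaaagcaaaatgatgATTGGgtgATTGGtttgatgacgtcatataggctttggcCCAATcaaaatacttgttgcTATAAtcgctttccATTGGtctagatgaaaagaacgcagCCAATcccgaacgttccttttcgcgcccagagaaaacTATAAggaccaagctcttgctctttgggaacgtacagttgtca
H4c9 (chr13:22041363-22041612, minus strand): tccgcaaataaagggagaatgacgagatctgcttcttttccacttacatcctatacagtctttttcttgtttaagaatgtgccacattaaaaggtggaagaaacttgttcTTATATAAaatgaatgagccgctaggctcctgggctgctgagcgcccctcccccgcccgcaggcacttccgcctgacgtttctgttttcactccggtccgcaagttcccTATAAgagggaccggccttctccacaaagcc
H2aw (chr11:58954435-58954684, plus strand): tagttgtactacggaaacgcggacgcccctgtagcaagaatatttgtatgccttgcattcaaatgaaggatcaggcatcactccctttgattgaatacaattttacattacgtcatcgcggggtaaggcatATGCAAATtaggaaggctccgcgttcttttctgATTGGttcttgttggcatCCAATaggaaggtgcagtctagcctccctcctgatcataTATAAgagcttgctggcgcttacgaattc
H2ac24 and H2ac11 held several CCAAT boxes and a TATA box core close to the start. H4c9 held the core but no CCAAT box, and H2aw held both and the octamer. Over the 49 members with a promoter in the RefSeq table, 77.6% held CCAAT against 34.5% of all 27025 promoters. By class, CCAAT was found in 15 of 15 H2A, 12 of 12 H2B, 8 of 10 H3 and 3 of 12 H4 promoters. The longer TATA box form was found in 42.9% of members against 13% of all promoters, and the core, a search added after the sequences had been seen, in 61.2% against 23.5%. The octamer, which the factor Oct-1 (Pou2f1) can bind, was found in 22.4% of members against 1.61% of all, in 6 of 15 H2A and 5 of 12 H2B promoters and in 0 of 10 H3 and 0 of 12 H4 promoters. Each gene was counted at its first listed start; another start of H2bc6, an H2B gene counted here as without the octamer, has it in its window. These are matches of letters in a window and say nothing of binding. Since the members include recent copies, their promoters are not independent of each other. H2ac23 and H2ac24 share an identical run of 200 bases when bases after the start are searched too. Within the 250-base windows the shared run is shorter.

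Identity also limits which copy a read can be given to. All 50-base windows of a member's transcripts were compared with those of other genes: 93.5% of windows of H2ac23 and 93.1% of H2ac24 occurred in another gene, 78.9% of H2ac11, 31.5% of H2aw, 30.6% of H2bc4 and 28.9% of H4c9. H3c14 and H2ac18 shared 100% of their windows, and H2bc21 shared 0. Over the members the median was 58%, with 10 above 90% and 1 with none. How the authors' counting treated reads that fit several copies is not given in the sources used here, so the values of H2ac23, H2ac24, H2ac11, H3c14, H3c15, H2ac18 and H2ac19 are uncertain as to the copy. H2aw also overlaps Trim17, and reads over the overlap could come from either gene.

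Library totals ran from 15287344 to 25193162 counts. Values are CPM, the counts scaled to a common library size, after TMM scaling, an edgeR method that adjusts for composition. All 10 macrophage markers were detected, 8 of them above 10 CPM in every library, and their sum was between 3497 and 4964 CPM per library. Tnf rose from 78.6 ± 2.6 CPM in untreated cells to 1957 ± 53.8 in the pool (SD, n = 4 each), with 189 ± 17.9 in bystanders and 2219 ± 25.4 in responders. Stmn2, Gap43 and Syt1, genes of neurons, summed to between 4.7 and 9.92 CPM in 6 libraries (untreated 1, pool 3 and 4, bystander 3 and 4, responder 1) and to at most 0.462 CPM in the other 10. These libraries lie in all 4 groups, with the same numbers in untreated cells and responders and in the pool and bystanders. Col1a1, a fibroblast marker, paired the same groups. It was at 12.4, 4.45, 17.6 and 6.22 CPM in untreated libraries and 14.1, 4.89, 18.2 and 6.72 in responders. In the pool it was at 5.54, 1.85, 73.6 and 5.07 CPM and in bystanders at 4.92, 1.7, 53.7 and 3.12. Responders against bystanders, and the pool or bystanders against untreated cells, cross these pairs, and the part of this was not tested. Counts of calls were repeated without the 6 libraries with neuronal transcripts, a choice made after seeing the data.

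Clustered histone reads were rare. Members held between 0.00459% and 0.0108% of the counts of a library, 24477 reads in all, and 38 of the 53 had under 100 reads. How transcripts were selected for sequencing (poly(A) capture or removal of ribosomal RNA) is not given in the sources used here. A listed set of 10 RNAs without a poly(A) tail, such as Rmrp and Rn7sk, summed to between 3.91 and 5.08 CPM in untreated libraries, 3.93 and 4.22 in the pool, 3.03 and 3.55 in bystanders and 2.09 and 3.14 in responders. Rpph1, with most of these reads, had a mean of 2.02 CPM in bystanders and 0.7 in responders. Rn7sk (0.546 and 0.855 CPM) and Rmrp (0.292 and 0.479) went the other way. The 6 members with most reads, H2bc4 (4472 reads), H2ac24 (3959), H2ac23 (3728), H2aw (3691), H4c9 (3036) and H2bc21 (1975), held 85.2% of member reads. Per kilobase of the longest annotated transcript, the mean level over all libraries was highest for H2ac24 at 24.7 CPM per kb and H2ac23 at 23.5. H4c9 followed at 12.8 CPM per kb, H2bc4 at 12, H2aw at 5.37, H2ac11 at 3.49 and H2bc21 at 2.28. The filter on low counts kept 14 members for testing, and 39 with at most 116 reads each were not tested. A member could pass that filter through the group where it was high, so counts over the 14 do not describe the family.

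The summed clustered histone level was lower in the pool and in responders than in untreated cells and bystanders. The sum over all 53 members was 79.7, 86.3, 83.7 and 85.2 CPM in untreated libraries 1 to 4 and 98, 106, 98.6 and 99.1 in bystanders. It was 58.1, 61.2, 62.4 and 67.6 CPM in the pool and 55.3, 54.9, 51.3 and 53.4 in responders. The 4 groups did not overlap in this sum. As a percent of library counts, without TMM, untreated libraries (0.00933% to 0.0101%) and bystanders (0.01% to 0.0108%) did overlap. The pool (0.0054% to 0.00629%) and responders (0.00459% to 0.00498%) stayed apart from each other and from the rest. In bulk RNA, fewer cells of a kind and less RNA per cell cannot be told apart.

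The classes did not share 1 pattern. H2A transcripts summed to 45.7 ± 2.79 CPM in untreated cells, 29.3 ± 1.91 in the pool, 58.2 ± 2.21 in bystanders and 23.8 ± 0.997 in responders (SD, n = 4 each). The H2A sum includes H2aw, at 4.77 CPM in untreated cells and 16.7 in bystanders. In those groups H2ac24 was at 18.8 and 18.5 CPM and H2ac23 at 17.4 in both, so the higher H2A sum of bystanders was not shared by these copies. H2B sums followed the same order over a narrower range, from 17.8 ± 0.697 CPM in responders to 25.4 ± 0.608 in bystanders, and H4 sums ran from 8.57 ± 0.75 in responders to 12.7 ± 1.23 in bystanders. H3 was lowest in untreated cells at 2.76 ± 0.649 CPM and was 3.85 ± 0.673 in the pool, 4.14 ± 0.45 in bystanders and 3.54 ± 0.686 in responders. The 39 members that were not tested summed to 4.48 ± 0.189 CPM in untreated cells, 4.26 ± 1.05 in the pool, 4.78 ± 1.22 in bystanders and 3.7 ± 0.251 in responders. Of these sums, only those of untreated cells and responders did not overlap.

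**Figure D2:**
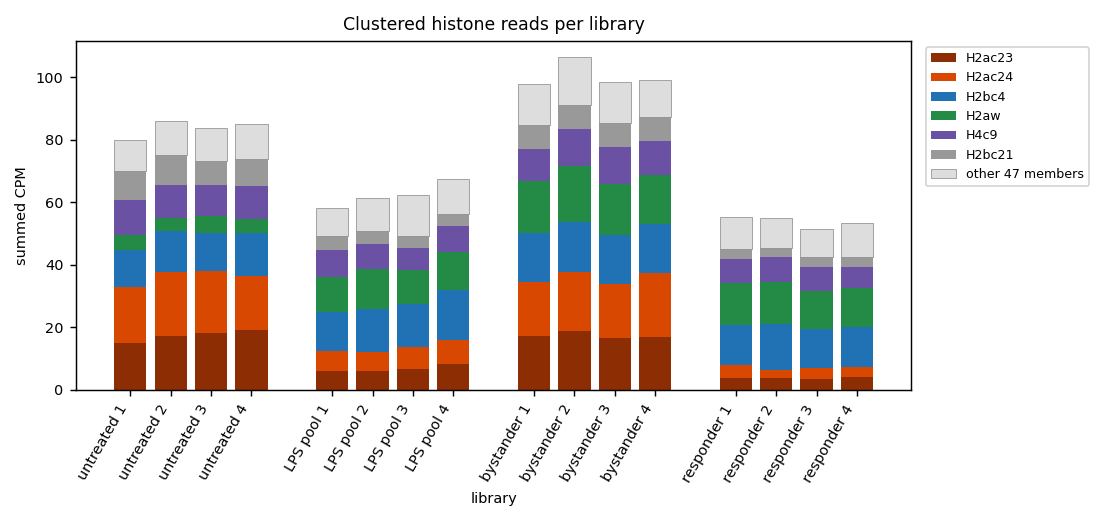
Summed CPM of the clustered histone genes in each of the 16 libraries (bars from 0), split into the 6 members with most reads and the other 47. The H2ac23 and H2ac24 segments shrink in the pool and responder libraries, and the H2aw segment is smallest in the untreated ones.

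The make-up of the sum changed with it. H2ac23 and H2ac24 together held 41.2% to 45.5% of member reads in untreated libraries and 34.4% to 37.7% in bystanders, against 19.9% to 23.7% in the pool and 11.6% to 14% in responders. H2aw held 5.01% to 6.51% in untreated libraries, 16% to 16.9% in bystanders, 17.5% to 21% in the pool and 23.3% to 24.4% in responders. H2ac24 and H2ac23 moved side by side, with a ratio of their reads between 0.792 and 1.21 in all 16 libraries, and they share most of their windows.

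Responders were compared with bystanders to ask how cells of high and low side scatter differ under 1 LPS treatment. Of the 14 members tested, 7 were lower in responders and 0 higher by edgeR's quasi-likelihood test at a Benjamini-Hochberg adjusted p under 0.05, where 35.3% of all 12589 genes tested were lower and 34.7% higher. The median log2 difference of the 14 was -0.48, beside -0.01 for all genes tested. At an unadjusted p under 0.05 the count higher was also 0, as it was by DESeq2. The 7 were H2ac24, H2ac23, H2ac11, H2bc21, H4c9, H2aw and H2bc4. With library totals in place of TMM the median of all genes shifted to -0.20, the higher share of all calls fell from 49.5% to 27.8%, and 10 members were lower, H2bc8, H2bc6 and H3c14 being added. Of the 3 RNAs without a poly(A) tail that had enough reads to test, Rpph1 was lower in responders, at 0.7 ± 0.127 CPM against 2.02 ± 0.158 (log2 difference -1.52 ± 0.23, edgeR adjusted p = 4.79e-08), and the other 2 did not pass. The median log2 difference of these 3 was 0.64, so the other 2 lay above 0, opposite to Rpph1. The part of RNAs of this kind in the histone differences was not tested.

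The H2A copies H2ac24 and H2ac23 differed most. H2ac24, an H2A gene of the chromosome 13 cluster (chr13:21833024-21833475), stood at 17.2, 18.9, 17.3 and 20.4 CPM in bystanders and at 4.04, 2.81, 3.58 and 3.41 in responders. All responder libraries were below all bystander libraries. The log2 difference was -2.41 ± 0.10 (SE), a 5.32-fold lower level, with an edgeR adjusted p of 2.04e-31. Its neighbour H2ac23 (chr13:21810367-21810918) stood at 17.3, 18.7, 16.6 and 16.9 CPM in bystanders and at 3.71, 3.56, 3.43 and 3.97 in responders, also without overlap. That was a log2 difference of -2.24 ± 0.10 (edgeR adjusted p = 1.23e-29). H2ac11 (chr13:22042478-22042949), a less abundant H2A copy, had 3.32, 2.36, 3.03 and 1.89 CPM in bystanders and 0.666, 0.642, 1.29 and 0.933 in responders. Its responder libraries were all lower, by -1.57 ± 0.24 on the log2 scale (edgeR adjusted p = 2.77e-08).

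H2bc21, an H2B gene on chromosome 3 (chr3:96221072-96223738) and the member with no shared window, had 7.67, 7.88, 7.64 and 7.71 CPM in bystanders and 3.38, 2.81, 3.24 and 3.31 in responders. The groups did not overlap, and the log2 difference was -1.27 ± 0.11 (edgeR adjusted p = 8.05e-16). H4c9, an H4 gene (chr13:22040960-22041362), had 10.2, 11.9, 11.8 and 10.7 CPM in bystanders and 7.47, 8.10, 7.42 and 6.91 in responders. It was lower in all responder libraries, by a smaller log2 difference of -0.58 ± 0.09 (edgeR adjusted p = 3.3e-08). H2aw, the H2A gene on chromosome 11 (chr11:58954685-58955192), differed by -0.37 ± 0.07 (edgeR adjusted p = 1.27e-05), from 16.7 ± 0.804 CPM to 12.9 ± 0.61 (SD, n = 4 each). H2bc4, an H2B gene (chr13:23684199-23692480), differed by -0.25 ± 0.07 (edgeR adjusted p = 0.00208), from 15.7 ± 0.234 CPM to 13.2 ± 1.05. The sizes of the differences thus ran from 1.19-fold in H2bc4 to 5.32-fold in H2ac24, and differences between members were not tested.

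The other 7 tested members did not pass; their means over all libraries were between 0.437 CPM (H2bc8) and 1.52 (H3c14). Their log2 differences ran from -0.67 (H2bc8, 95% interval -1.43 to 0.09) and -0.65 (H2bc6, -1.37 to 0.07) through -0.39 (H3c14) and -0.10 (H2ac19) to 0.03 (H2ac18), 0.15 (H3c15) and 0.40 (H2ac8, -0.27 to 1.07). Each of these 7 intervals held 0 and reached past a 1.5-fold change in at least 1 direction, so smaller differences were not detectable at this depth.

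**Figure D3:**
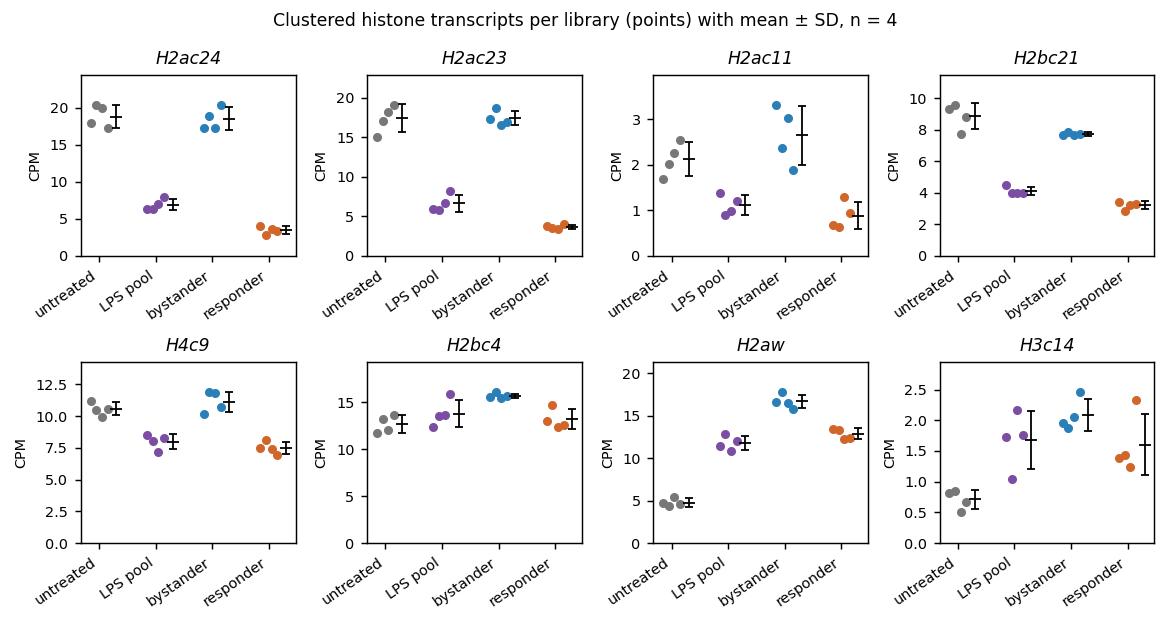
CPM of 8 members in each library (points; y axes from 0) with the mean ± SD of the 4 libraries of a group beside them. H2ac24, H2ac23, H2ac11, H2bc21 and H4c9 are low in the pool and responders, while H2aw and H3c14 are lowest in untreated cells.

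The pool was compared with untreated cells to ask what LPS did to ungated cells; it shares no library with the comparison of the gates. Of 14 members tested, 5 fell and 3 rose by edgeR's test, beside 37.8% of all genes that fell and 34.1% that rose. The median log2 change of the 14 was 0.06, beside -0.03 for all genes. With library totals the median of all genes was -0.36 and the higher share of all calls 21.6% in place of 47.4%. H2ac24 went from 17.9, 20.4, 19.9 and 17.2 CPM in untreated libraries to 6.35, 6.36, 7.01 and 7.88 in the pool, with no overlap, a log2 change of -1.46 ± 0.09 (edgeR adjusted p = 9.34e-23). H2ac23 went from 15, 17.1, 18.2 and 19.1 CPM to 5.95, 5.84, 6.70 and 8.16, a log2 change of -1.40 ± 0.09 (edgeR adjusted p = 1.92e-21). Rpph1 also fell, by -0.82 ± 0.20 (edgeR adjusted p = 0.000212), while 1 of the 3 tested RNAs without a poly(A) tail rose. Pool values of H2ac24 and H2ac23 lay between those of bystanders and responders. The pool mean of H2aw did not: it was 11.8 CPM, against 12.9 in responders and 16.7 in bystanders, though pool and responder libraries overlapped.

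H2bc21 fell from 9.29, 9.58, 7.72 and 8.81 CPM to 4.51, 3.99, 3.97 and 4.01, a log2 change of -1.10 ± 0.11 (edgeR adjusted p = 4.68e-14). H2ac11 fell from 1.68, 2.02, 2.26 and 2.55 CPM to 1.39, 0.902, 0.993 and 1.20, by -0.93 ± 0.24 (edgeR adjusted p = 0.000439), and H4c9 from 10.6 ± 0.518 to 8 ± 0.6 CPM, by -0.40 ± 0.09 (edgeR adjusted p = 6.02e-05). None of these overlapped between groups. H2aw rose from 4.76, 4.32, 5.45 and 4.55 CPM to 11.4, 12.9, 10.9 and 12, by 1.32 ± 0.09 (edgeR adjusted p = 8.31e-20). H3c14, an H3 gene on chromosome 3 (chr3:96246685-96247348), rose from 0.816, 0.855, 0.514 and 0.668 CPM to 1.73, 1.04, 2.17 and 1.76, by 1.20 ± 0.27 (edgeR adjusted p = 6.8e-05). Every pool library was above every untreated library for both. H2ac18, with 209 reads in all, was called higher by 0.92 ± 0.36 (edgeR adjusted p = 0.0191), with groups that overlapped. Without the libraries holding neuronal transcripts its adjusted p was 0.0517. H2bc4 stood at 12.7 ± 0.916 CPM in untreated cells and 13.8 ± 1.47 in the pool; its log2 change of 0.12 (95% interval -0.03 to 0.27) did not pass and became -0.21 with library totals.

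Bystanders were compared with untreated cells to ask whether cells in the low gate resembled cells without LPS; these comparisons share libraries with those above. Of the 14 members, 0 were lower by edgeR's test and 4 were higher, beside 32.9% of all genes lower and 34.1% higher. At an unadjusted p under 0.05 edgeR had 1 lower (H2bc21), and DESeq2's adjusted count was 0. H2ac24 was at 18.5 ± 1.53 CPM in bystanders and 18.8 ± 1.54 in untreated cells, a log2 difference of -0.03 (95% interval -0.17 to 0.12). H2ac23 was at 17.4 CPM in both, with a log2 difference of -0.00 (95% interval -0.15 to 0.14). With library totals, which moved the median of all genes from 0.01 to -0.18 and the higher share of calls from 50.9% to 27.5%, both passed as lower, at -0.22 and -0.20 (edgeR adjusted p = 0.00621 and 0.0163). H2bc21 differed by -0.20 ± 0.09 and did not pass (edgeR adjusted p = 0.0565); it passed without untreated library 3 (adjusted p = 0.019) and with library totals (-0.39).

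H2aw was higher in every bystander library, at 16.6, 17.8, 16.5 and 15.8 CPM against 4.32 to 5.45 in untreated cells, a log2 difference of 1.81 ± 0.09 (edgeR adjusted p = 9.45e-28). H3c14 was at 1.95, 1.88, 2.06 and 2.46 CPM against 0.514 to 0.855, a difference of 1.54 ± 0.25 (edgeR adjusted p = 2.57e-07). H2bc4 differed by 0.31 ± 0.07 (edgeR adjusted p = 0.000219), with 15.5 to 16.1 CPM in bystanders and 11.7 to 13.7 in untreated cells, and did not pass with library totals (0.11). H2ac18 differed by 0.84 ± 0.35 (edgeR adjusted p = 0.0321), a call that was lost with library totals (adjusted p = 0.0948) and without bystander library 1 (adjusted p = 0.141).

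Responders were compared with the same untreated libraries, and 5 of the 14 members were lower and 3 higher by edgeR's test, beside 38.5% of all genes lower and 36.5% higher. The log2 differences were -2.44 ± 0.10 for H2ac24, -2.24 ± 0.10 for H2ac23, -1.47 ± 0.11 for H2bc21, -1.27 ± 0.24 for H2ac11 and -0.50 ± 0.09 for H4c9. H2aw was 1.44 ± 0.09 higher, H3c14 1.15 ± 0.26 and H2ac18 0.87 ± 0.35 (adjusted p = 0.137 without the neuronal libraries). H2bc4 was at 13.2 ± 1.05 CPM against 12.7 ± 0.916, a log2 difference of 0.05 that did not pass and that turned to -0.33 with library totals. H2aw and H3c14 were thus above untreated levels in all LPS-treated groups, in both gates.

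**Figure D4:**
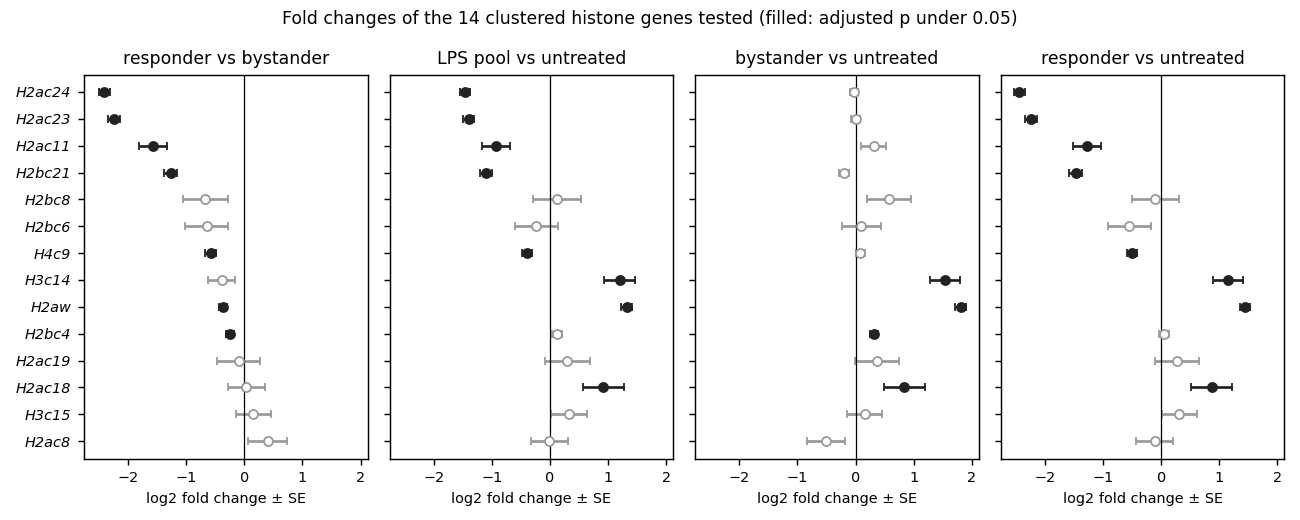
Log2 fold change ± SE of the 14 members tested in the 4 comparisons, with filled points where the edgeR adjusted p was under 0.05. H2ac24, H2ac23, H2ac11 and H2bc21 lie left of 0 in 3 panels and near it for bystander against untreated, while H2aw and H3c14 lie right of 0 in the 3 comparisons with untreated cells.

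Many H2A and H2B genes of the clusters sit head to head, sharing the sequence between their starts. Of 10 such pairs with starts within 1000 bases, several had very unequal reads. H2ac24 had 3959 reads and its partner H4bc24, 268 bases away, had 11. H2ac23 had 3728 and H2bc23, 168 bases away, had 9. H2ac11 had 557 and H2bc11 had 36, while H2ac8 and H2bc8, with starts 180 bases apart, had 206 and 142. Of the 50-base windows of H4bc24, 88.7% occurred in another gene, and windows of H2bc23 were not searched. How reads that fit several copies were counted is not given, so unequal reads need not mean unequal use of the shared sequence. Of the 11 reads of H4bc24, 10 were in bystanders (1, 4, 3 and 2 in libraries 1 to 4), 1 was in the pool and 0 in the others; it was chosen here after its values were seen and had too few reads to be tested.

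Genes that activate histone transcription or process histone mRNA went in both directions between the gates. All 23 listed genes were tested, and 8 were higher and 5 lower in responders than in bystanders, with a median log2 difference of -0.00. Slbp, which binds the stem-loop, was at 62.4, 61.6, 60.1 and 61.9 CPM in bystanders and 48.3, 48.2, 48.4 and 48 in responders, a log2 difference of -0.35 ± 0.04 (edgeR adjusted p = 5.44e-12). Untreated cells had 63.3 to 67.4 CPM and the pool 47.9 to 56.4. Lsm11, of the U7 complex, was higher in responders by 0.76 ± 0.07 (edgeR adjusted p = 7.42e-16), and Cstf2t, a cleavage factor subunit, was lower by -0.54 ± 0.05 (edgeR adjusted p = 1.2e-14). Lsm11 was at 20.3 ± 1.21 CPM in untreated cells, 24.3 ± 0.986 in the pool, 21.6 ± 1.4 in responders and 12.6 ± 0.929 in bystanders. Against untreated cells it was lower in bystanders by -0.67 ± 0.07 (edgeR adjusted p = 9.06e-14) and did not pass in responders. Npat, the activator of these genes, was at 18.6 ± 1.24 CPM in responders and 19.2 ± 1.18 in bystanders, a difference that did not pass. It was below the untreated level of 25.1 ± 0.532 in all LPS-treated groups, by -0.52 ± 0.06 in the pool and -0.39 ± 0.06 in bystanders (edgeR adjusted p = 6.39e-11 and 5.39e-08). Against untreated cells 14 of the 23 fell in the pool and 17 of 23 in bystanders, with 3 and 2 higher.

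Variant core histones gave a mixed picture. Among the 8 variant core histones with enough reads, 4 were lower in responders than in bystanders (H2az2, Cenpa, H2ax and H2az1) and 1 was higher (H3f3a). H2ax, the H2A variant phosphorylated at DNA breaks, was at 24 ± 2.25 CPM in responders, 45.6 ± 1.69 in bystanders, 33.1 ± 0.378 in the pool and 66.2 ± 1.32 in untreated cells (SD, n = 4 each). The difference between the gates was -0.92 ± 0.05 (edgeR adjusted p = 1.06e-25). H2ax was also lower in bystanders than in untreated cells, by -0.54 ± 0.04 (edgeR adjusted p = 4.41e-18). Cenpa, the centromeric H3, was lower in responders by -0.95 ± 0.03 (edgeR adjusted p = 9.2e-35) and higher in bystanders than in untreated cells by 0.21 ± 0.03. H3f3a, which encodes the replacement histone H3.3, differed by 0.09 ± 0.03 between the gates, a sign that turned with library totals (-0.10). H3f3b, the other H3.3 gene, was counted at 0.732 ± 0.0799 CPM in untreated cells, where H3f3a was at 137 ± 3.27. It was at 2.47 ± 0.506 CPM in the pool, 2.52 ± 0.533 in bystanders and 2.48 ± 0.173 in responders. The change in the pool was 1.73 ± 0.23 (edgeR adjusted p = 9.34e-10). Windows of H3f3b were not compared with those of other genes, and the counting of reads that fit several genes is not given. Its low level and its rise are therefore uncertain.

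Of the 8 listed linker histones, 5 had enough reads to test, and between the gates 2 were higher and 1 lower in responders. H1f2, at 25.4 ± 1.7 CPM in untreated cells, 25.1 ± 1.9 in the pool, 26.8 ± 0.915 in bystanders and 25.4 ± 1.15 in responders, did not pass in any comparison. H1f5 and H1f3, named after their values were seen, were higher in responders than in bystanders, by 2.46 and 0.95 on the log2 scale by edgeR's test. H1f5 was at 0.81 ± 0.102 CPM in responders against 0.138 ± 0.0828 in bystanders, 0.505 ± 0.149 in the pool and 0.142 ± 0.135 in untreated cells, on 126 reads in all. H1f4 did not pass between the gates, at 0.448 ± 0.21 CPM in bystanders and 0.63 ± 0.0836 in responders. H1f0, a linker histone with a poly(A) tail that is made outside S phase, was lower in responders by -0.63 ± 0.04 (edgeR adjusted p = 6.37e-20).

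Genes of DNA synthesis and mitosis were lower in responders. Of 30 genes of DNA replication and S phase, 25 were lower and 2 (Cdc6 and Cdt1) higher in responders than in bystanders, with a median log2 difference of -0.34. All 25 genes of G2 and mitosis were lower, with a median of -0.63, beside -0.01 for all genes tested. Pcna, the replication clamp, was at 523, 522, 502 and 511 CPM in bystanders and 361, 356, 358 and 361 in responders, a log2 difference of -0.52 ± 0.02 (edgeR adjusted p = 4.04e-30). Untreated cells had 507 to 525 CPM, and bystanders did not differ from them by the test (-0.00, 95% interval -0.05 to 0.04). Tk1, the S-phase thymidine kinase, was lower in responders by -1.06 ± 0.04 and Rrm1, of ribonucleotide reductase, by -0.55 ± 0.02 (edgeR adjusted p = 5.17e-33 and 3.01e-31). Mki67, a marker of cycling cells, was lower by -1.41 ± 0.04 (edgeR adjusted p = 1.38e-14). None of the named replication genes differed by as much as H2ac24 or H2ac23, but whether the differences themselves differ was not tested.

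Against untreated cells, bystanders had 25 of the 30 replication genes lower and 2 (Mcm10 and Rfc3) higher, with a median of -0.32, and 20 of 25 mitosis genes lower and 2 (Ccnb2 and Cenpe) higher, with a median of -0.29. Tk1 was lower by -0.57 ± 0.03 and Top2a by -0.25 ± 0.02 in bystanders (edgeR adjusted p = 3.08e-23 and 5.19e-16). In the pool 27 of 30 replication genes and 25 of 25 mitosis genes fell, with medians of -0.52 and -0.78. Of 23 G1 cyclins, E2F factors and CDK inhibitors, 9 were higher and 10 lower in responders than in bystanders, and Cdkn1a, which encodes the CDK inhibitor p21, was at 337 ± 4.54 CPM in untreated cells, 637 ± 6.39 in bystanders, 705 ± 5.64 in the pool and 759 ± 13.3 in responders.

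**Figure D5:**
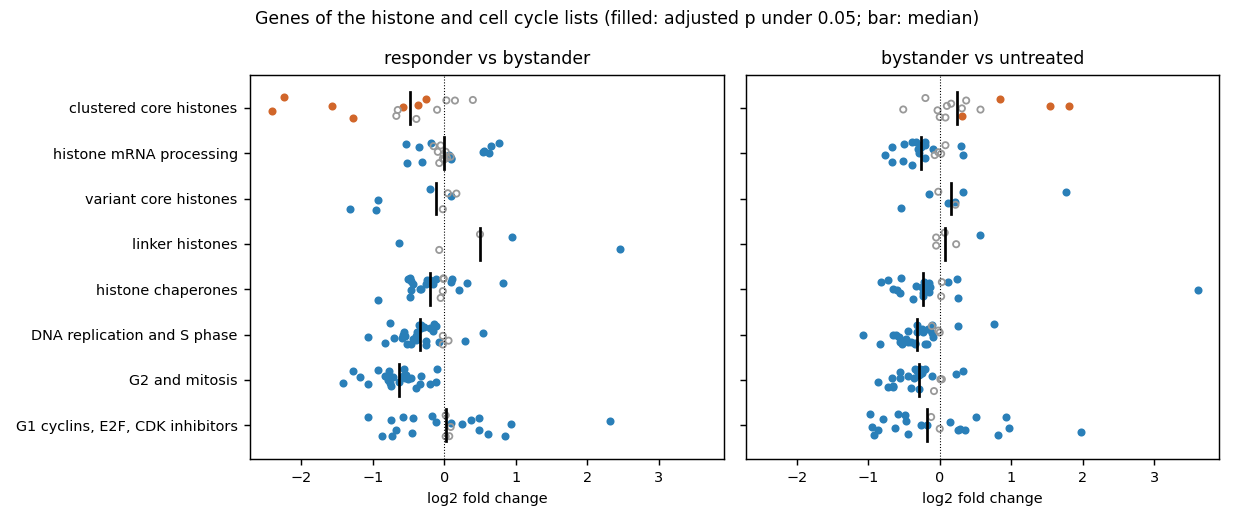
Log2 fold change of each tested gene of the clustered core histones (orange) and of 7 listed groups (blue), for responder against bystander and bystander against untreated; points are filled where the edgeR adjusted p was under 0.05, open where not, and bars are medians. The mitosis genes all lie left of 0 between the gates, and the clustered histone genes hold the lowest values there.

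Histone chaperones carry new histones to DNA. Of 23 tested, 14 were lower and 5 higher in responders than in bystanders, with a median of -0.20. Daxx, a chaperone of H3.3, was at 50.8 ± 2.09 CPM in untreated cells, 304 ± 14.3 in the pool, 622 ± 8.03 in bystanders and 327 ± 9.1 in responders, so that like H2aw it was highest in bystanders and lowest in untreated cells. Its log2 difference between the gates was -0.93 ± 0.02 and that between bystanders and untreated cells 3.61 ± 0.03 (edgeR adjusted p = 1.04e-35 and 4.04e-58).

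Markers of other cell types were set beside these values. Of the neural markers, Rbfox3, Nefm and Nefl were at or near 0 (12, 3 and 12 reads in all 16 libraries). Other listed neuronal genes had more reads: Map2 2187, Tubb3 574, Stmn2 473, Gap43 194 and Syt1 130. The reads of Rbfox3 all fell in libraries with neuronal transcripts (untreated 1, pool 3, bystander 3 and responder 1). The 7 neutrophil markers summed to between 0.205 and 0.427 CPM in bystanders and 1.14 and 2.1 in responders, and to 0.309 to 0.45 in untreated libraries and 1.1 to 1.74 in the pool. S100a8 (179 reads) and Camp (81 reads) held most of these reads, and S100a9 and Ly6g had 0 reads in all 16 libraries. The 8 lymphocyte markers summed to between 2 and 2.71 CPM in bystanders, 0.846 and 1.48 in responders, 1.39 and 1.85 in untreated libraries and 1.04 and 1.27 in the pool. Cd4 held most of these and was lower in responders than in bystanders, by -1.36 ± 0.29 (edgeR adjusted p = 3.41e-05), while Cd3e, Cd3d, Cd8a and Nkg7 had 0 reads. The 7 fibroblast markers summed to between 2.06 and 106 CPM, with the highest values in pool 3 and bystander 3. Without the 6 libraries with neuronal transcripts, which include both, 7 members were lower and 0 higher in responders than in bystanders.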

How the data were processed

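RNA from 16 libraries, 4 per group, was measured by RNA sequencing. The deposited table holds whole-number counts per gene, made by the authors; per the submitters' processing notes an aligner, HISAT2 2.2.2, a read counter, featureCounts 2.1.1, and 2 trimmers, cutadapt 3.7 and fastp 1.1.0, are named with the mouse build GRCm38 (mm10). Strand and multi-mapping settings were not given in the sources used. Gene identifiers were matched to RefSeq symbols (GRCm38.p6) for 25275 of 27179 genes; the other 1904 held 0.399% of counts. The table's 3 empty columns were not used.

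Genes kept by filterByExpr (12589) were tested with edgeR 4.0.16 in R 4.3.3: TMM scaling, 1 quasi-likelihood fit over the 4 groups, two-sided tests and Benjamini-Hochberg adjustment over all genes tested, with calls at an adjusted p under 0.05. DESeq2 1.42.0 was an alternative, with other scalings, filters and sets of libraries. The fit was tested on simulated data. Genes in the text are all members with a mean of at least 1 CPM, the largest and smallest folds among members tested, 2 genes per list by p and a short fixed set. Members and lists were chosen with earlier results of these data known. Intervals are for 95% and cover the spread in the fit. Replicates of a group differed by more than sampling noise (chi-square per degree of freedom 1.61 to 3.13), so none was counted as a copy of another. Same-numbered libraries of different groups were not paired in the main fit. Correlations of their deviations ran from -0.468 to 0.605, and those of different-numbered libraries from -0.52 to 0.479. Pool and bystander libraries of the same number correlated at 0.391, 0.412, 0.475 and 0.43. Untreated and responder libraries of the same number correlated at 0.605, 0.18, 0.169 and 0.175. The other pairs of groups had values of both signs. Shared handling of such libraries was not tested. The summed level of the neural marker list is not reported here.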

Additional observations from a re-analysis of the deposited data

Results flagged for a closer look

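In 5 of 80 groups of 4 libraries examined, 1 library stood apart from the other 3; chance alone flags about 1 in 20 such groups. H2bc21 was 4.51 CPM in pool library 1 and 3.97 to 4.01 in the other 3. H2ac19 was 0.317 CPM in untreated library 1 and 0.405 to 0.417 in the others. H2ac18 was 1.03 CPM in bystander library 1 and 0.606 to 0.656 in the others. The sum of all members was 106 CPM in bystander library 2 and 98 to 99.1 in the others. The H2A sum was 25.3 CPM in responder library 1 and 23.2 to 23.5 in the others.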

How the results depend on the processing

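Leaving out each library in turn gave 7 to 8 members lower and 0 higher for responders against bystanders, 5 lower and 2 to 3 higher for the pool, 0 to 1 lower and 3 to 4 higher for bystanders, and 5 lower and 2 to 3 higher for responders, each of the last 3 against untreated cells. A replicate block by label number gave the same counts, 7, 5, 0 and 5 lower and 0, 3, 4 and 3 higher. That block treats a number as alike in all 4 groups, though the neuronal transcripts fell in different numbers. Keeping genes with 50 reads in 4 libraries left 1, 2 and 1 members higher in the pool, bystanders and responders against untreated cells, since fewer were tested. For bystanders against untreated cells, library totals gave 3 lower and 2 higher, and a fit of those 2 groups alone gave 1 lower. With library totals the log2 values changed sign for H3f3a (-0.10 for responders against bystanders, and against untreated cells -0.16 in the pool, -0.08 in bystanders, -0.18 in responders), H2bc4 (-0.21 in the pool, -0.33 in responders), Lsm11 (-0.07 and -0.29 in the same 2), Cdc25a (-0.36 in responders), and in bystanders H1f2 (-0.12), Cabin1 (-0.07), Ccnd3 (-0.05) and Adgre1 (-0.06). Library totals put the median of all genes at -0.41 for responders against untreated cells in place of -0.02, and 21.7% of calls higher in place of 48.7%. The planned rule on the whole neural list found no gap between libraries and was not run. Depth limits the 39 untested members.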
